A study of Homo sapiens with 2 samples.

Results

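Patches of high and low interferon response were compared within sections of 2 untreated tumors of the MDA-MB-231 line, human breast cancer cells that lack hormone receptors. An interferon score was given to each spot, a barcoded disc of tissue that can hold several cells. The score was the number of UMIs (unique molecular identifiers, 1 per captured RNA molecule) of ISG15, IFI6, IFI27, IFIT1, IFIT3, MX1, OAS1, OAS2 and OAS3 per 10000 UMIs, averaged over a spot and the spots adjoining it. The interferon-high group is the top 10% of spots by this score in each tumor and the interferon-low group the bottom 10%. In tumor 1 each group held 223 of the 2234 spots with at least 5000 UMIs, and in tumor 2 each held 196 of 1962, so that 838 of 5382 spots over tissue were members.

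Both groups come from the same sections and share every feature of the model. The cells carry a fluorescent fate-mapping reporter of hypoxia, the tumors were removed 18 days after implantation, and frozen sections of 10 µm were placed on Visium slides. The labels name neither the host nor its strain and do not say whether the 2 tumors came from separate animals, so the spread between them may be partly technical. The genes counted are human, and RNA of host cells that aligns to a human gene cannot be told apart from tumor RNA. Fluorescence images were not used here. Tumor 1 gave 58661164 UMIs over 2536 spots (median 23574 per spot) and tumor 2 39736292 over 2846 spots (median 15832). The libraries shared 1627 barcodes, each at the same array position in both, as is usual for slides of a common layout.

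Interferons are secreted proteins that warn cells of viral nucleic acid. Type I and type III interferons bind their receptors, the kinases JAK1 and TYK2 phosphorylate STAT proteins, and these join IRF9 in a complex that binds a promoter element named ISRE and switches on antiviral genes. Interferon gamma acts at a different element named GAS. Low oxygen acts through the HIF factors, which bind a short core named HRE in the promoters of genes for glycolysis, acid export and vessel growth.

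Promoter sequences of a few genes that differed between the patches are shown first, chosen because they hold one of these motifs. Other genes that differed hold none of them, among them HELZ2 and DDX58 in the interferon-high spots and ADM, DEPP1, EGLN3 and LIMCH1 in the interferon-low spots. They are RefSeq sequences on GRCh38.p14, read 5′ to 3′ on the strand of the gene, in windows of 60 bases, and capitals mark each match to the motif on either strand. The ISRE was searched as GAAA, 2 bases of any kind and GAAA, and the HRE core as ACGTG. The next 4 belong to genes of the score and the 3 after them to genes outside it that were higher in the interferon-high spots.
ISG15, chr1:1013365-1013424, plus strand: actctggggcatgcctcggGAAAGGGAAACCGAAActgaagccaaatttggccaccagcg
IFI6, chr1:27672251-27672310, minus strand: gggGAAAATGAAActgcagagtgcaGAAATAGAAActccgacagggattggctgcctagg
IFI27, chr14:94110616-94110675, plus strand: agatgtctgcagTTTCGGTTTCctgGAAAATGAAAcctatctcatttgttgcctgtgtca
IFIT1, chr10:89392495-89392554, plus strand: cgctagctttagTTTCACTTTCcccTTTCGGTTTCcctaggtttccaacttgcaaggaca
DDX60, chr4:168318771-168318830, minus strand: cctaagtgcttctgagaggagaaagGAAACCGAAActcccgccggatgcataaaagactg
IFI44, chr1:78649746-78649805, plus strand: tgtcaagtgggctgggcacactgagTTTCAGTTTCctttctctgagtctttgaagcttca
DTX3L, chr3:122564307-122564366, plus strand: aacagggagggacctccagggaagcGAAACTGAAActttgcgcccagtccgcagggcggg

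The last 3 sequences show the other motifs. PRSS2 had the highest log2 fold change in the interferon-high spots among genes at 20 CPM or more (UMIs per 1000000) outside the interferon lists. Its promoter held no ISRE match and 1 match to TTCNNNGAA, the letters searched for GAS. CA9 and ANKRD37, both lower in the interferon-high spots, carry HRE cores.
PRSS2, chr7:142770720-142770779, plus strand: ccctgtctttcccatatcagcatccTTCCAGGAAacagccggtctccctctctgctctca
CA9, chr9:35673882-35673941, plus strand: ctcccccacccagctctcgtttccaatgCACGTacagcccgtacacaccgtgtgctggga
ANKRD37, chr4:185396670-185396729, plus strand: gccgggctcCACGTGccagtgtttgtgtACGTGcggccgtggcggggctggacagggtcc

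Over windows from 250 bases before to 50 bases after the start, an ISRE match stood in 7 of the 8 score genes whose promoter is in the table, MX1 having its match 12 bases inside the transcript. It stood in 24 of 45 called members of the interferon lists (53.3%), in 8.44% of all genes called higher, in 2.33% of genes called lower and in 2.69% of all tested genes. The table as a whole held it in 3.57% of 35116 promoters. GAS letters stood in 24.4% of the called interferon-list members and in 6.47% of tested genes. The HRE core, which is short and common, stood in 29.8% of all genes called lower, in 22.3% of those called higher and in 27.1% of all tested genes. Among genes that differed by a log2 of 1 or more it stood in 38.5% of the lower and 17.9% of the higher. A match describes the letters in the window and does not show that a factor binds there.

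Because the score of a spot is averaged with that of adjoining spots, neighbours tend to share a group by construction. In tumor 1 the 223 interferon-high spots formed 11 patches, of which the largest held 183 spots (82.1%), and the low spots formed 13, the largest of 128. In tumor 2 the high spots were scattered over 19 patches with at most 42 spots in any of them, whereas 176 of the 196 low spots (89.8%) lay in a single patch. No high spot touched a low spot in either tumor, which the averaging also favours. Each group of each tumor held 2 to 4 patches of a single spot. Without averaging, the score of a spot correlated with that of an adjacent spot at r = 0.55 in tumor 1 and 0.46 in tumor 2. At 12 spot spacings r was 0.11 and 0.071. These correlations are over pairs of spots within each section and share its library, so they are given as a description without a test.

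**Figure D1:**
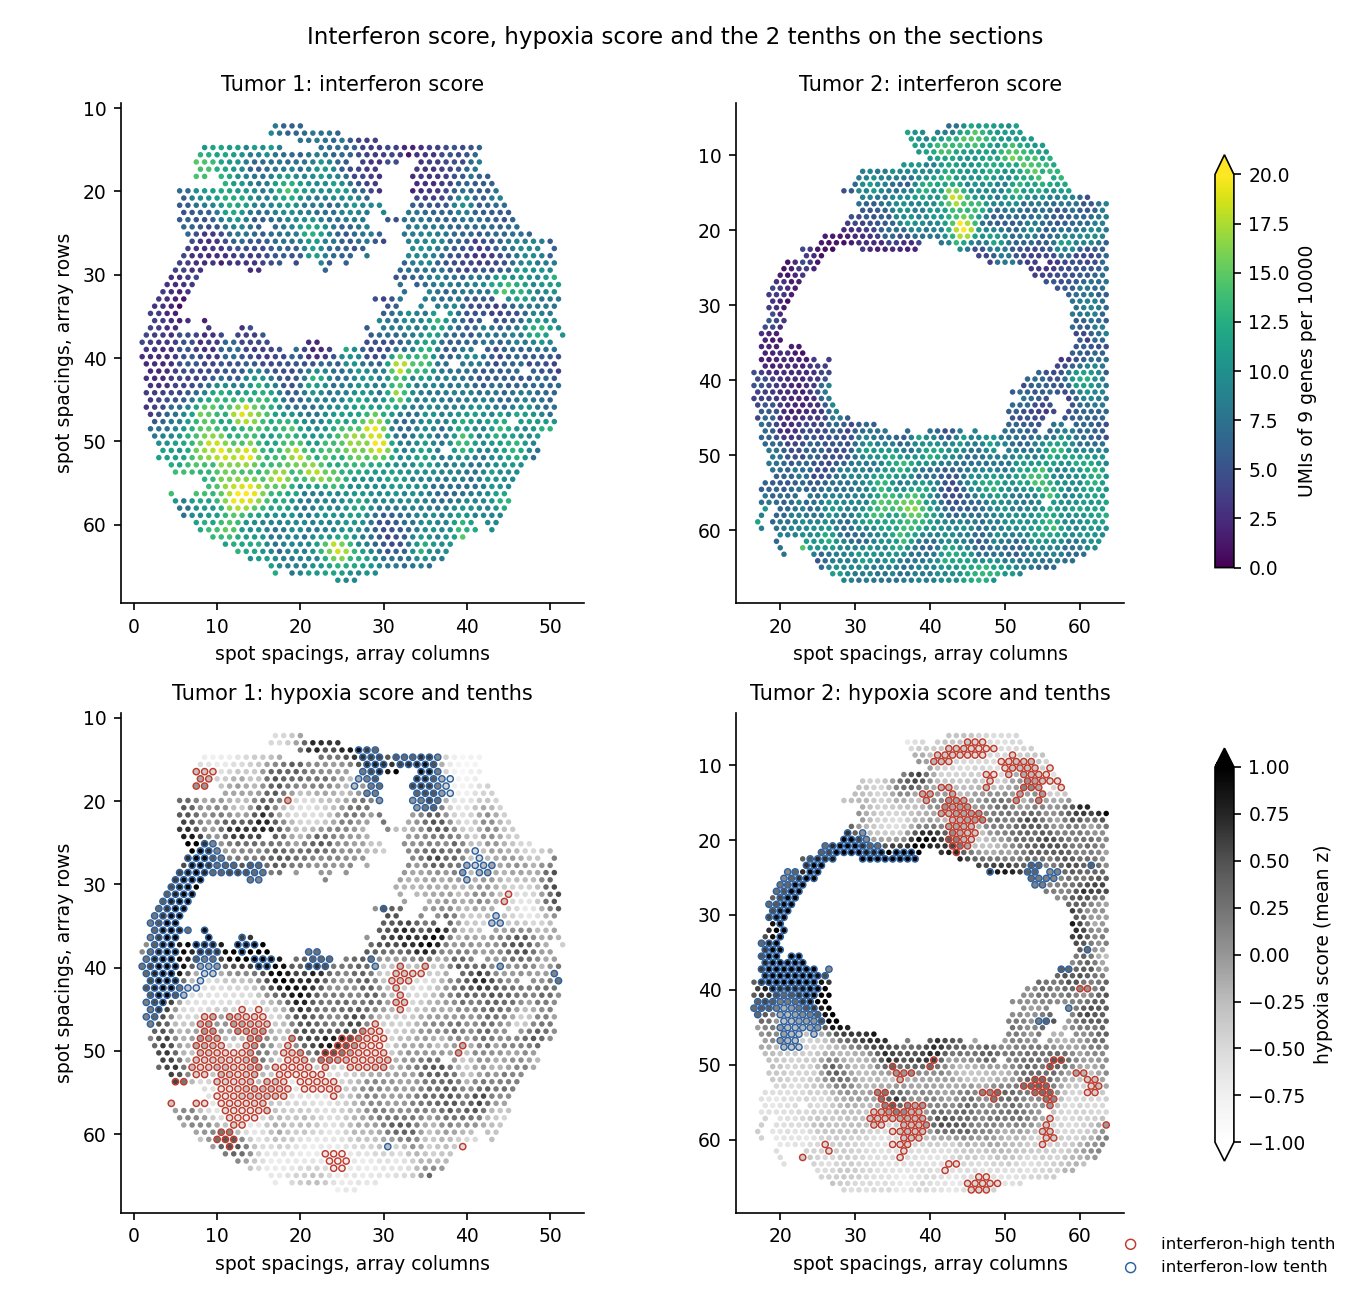
Maps of both sections, with spots placed by array column and row in units of spot spacing. The upper maps colour each spot by the interferon score (UMIs of the 9 genes per 10000, averaged over adjoining spots) and the lower maps shade the hypoxia score, with rings on the interferon-high (red) and interferon-low (blue) spots. High spots of tumor 1 gather in a patch of 183 spots and low spots of tumor 2 in a patch of 176. Tissue spots under 5000 UMIs are left blank, and the largest such area holds 258 of 302 in tumor 1 and 830 of 884 in tumor 2.

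The genes of the score chose the members, so their values are a description. ISG15, a ubiquitin-like modifier (ENSG00000187608), stood at 540 CPM (UMIs per 1000000 after scaling between the sums) in the high spots of tumor 1 against 150 in its low spots, and at 424 against 97.2 CPM in tumor 2. IFI27, a small mitochondrial membrane protein (ENSG00000165949), stood at 494 against 82.8 and 321 against 50.9 CPM. ISG15 and IFI27 alone gave 65.6% of the score's UMIs in tumor 1 and 60.7% in tumor 2, so they weigh most in it. MX1, a GTPase that traps viral particles (ENSG00000157601), had the widest ratio of the 9 in both tumors, 11.1-fold (74.6 against 6.75 CPM) and 8.49-fold (46.2 against 5.44 CPM). The ratios of OAS2, which makes the 2-5A messenger that wakes RNase L, were 8.18 and 7.78. Those of IFIT3 were 3.002 and 3.63, the smallest of the 9 in tumor 1, and OAS3 had the smallest in tumor 2 at 2.89. The 4 marker genes ISG15, IFI27, MX1 and OAS2 were thus all higher in the spots labelled interferon-high. The score of the last spot inside the high group was 13.625 against 13.623 for the first outside it in tumor 1, and 12.04 against 12.03 in tumor 2. At the low end the values were 4.17 and 4.19 in tumor 1 and 3.97 and 3.99 in tumor 2, with medians over all spots of 8.601 and 8.37.

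When the score was built from the genes at odd places of the list, the 4 genes left out of it entered the fit, where 4% of all tested genes were called higher, and all rose: MX1 (log2 3.28 ± 0.17 SE), OAS2 (2.83 ± 0.17), IFIT1 (2.10 ± 0.12) and IFI6 (1.98 ± 0.10). With the genes at even places, where 3.71% were called higher, the other 5 rose: OAS1 (2.62 ± 0.18), IFI27 (2.26 ± 0.08), OAS3 (1.79 ± 0.16), ISG15 (1.64 ± 0.07) and IFIT3 (1.38 ± 0.10). Each was higher in both tumors. The 9 genes were picked together as 1 set with earlier results of these data known, so these values are a description and not independent support. Every high spot held at least 1 UMI of ISG15 and of IFI27, but the low spots were not empty of the response: ISG15 was detected in 83.0% of them in tumor 1 and in 74.0% in tumor 2. MX1 was detected in 12.1% and 8.67% of low spots against 86.1% and 61.2% of high spots. High spots also held more UMIs, with medians of 36284 against 19899 in tumor 1 and 21554 against 16281 in tumor 2, and detection depends on depth.

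The 9 genes were then left out and 12295 other genes were tested on 4 sums, the high and the low spots of each tumor (8037850 and 4651700 UMIs in tumor 1, 4180890 and 3222910 in tumor 2). At a Benjamini-Hochberg adjusted p of 0.05 in edgeR's quasi-likelihood test, 506 genes (4.12%) were higher and 979 (7.96%) lower in the interferon-high spots. The sign was shared by the tumors for 98.9% of these 1485 genes and for 64.9% of the genes tested, a difference the test itself favours. Scaling by library size alone shifts the median of all genes by 0.15 on the log2 scale and turns the split into 1946 higher (15.8%) and 553 lower (4.5%). DESeq2 on the same sums called 42 higher (0.342%) and 236 lower (1.92%), and the fit with no replicate block called 112 (0.911%) and 312 (2.54%). The edgeR p-values and the SE of log2 fold changes rest on a variance trend shared by all genes, since 4 sums leave 1 residual degree of freedom. The SE thus leaves out the spread of a gene between the tumors. SAA1, for example, was at log2 -2.92 ± 0.12 with -2.34 in tumor 1 and -3.55 in tumor 2. An exact test over 2 tumors alone cannot go below p = 0.5. Because a spot pools cells, fewer responding cells and less RNA per cell cannot be told apart.

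Members of the interferon lists made up 12 of the 14 genes that were higher by a log2 of 1 or more at 20 CPM or more. With no limit on CPM they made up 28 of 96 such genes (29.2%), and of all 506 genes called higher they made up 61 (12.1%). Of 109 tested members of these lists, 61 were higher and 0 lower, and all 61 were higher in both tumors. Among all tested genes 4.12% were higher and 7.96% lower. The other 2 of the 14 were PRSS2 and BMP4, a secreted growth factor.

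The 10 interferon genes looked up were almost absent. Of the alpha interferons only IFNA1 and IFNA2 were among them. IFNB1, IFNA1, IFNA2, IFNE, IFNW1, IFNL3 and IFNG had 0 UMIs in all spots of both sections, which allows at most 0.0511 CPM in tumor 1 and 0.0755 CPM in tumor 2. IFNL1, a type III interferon, had 12 UMIs in 8 spots of tumor 1 and 2 UMIs in 2 spots of tumor 2. Of its 12 UMIs in tumor 1, 4 lay in the interferon-high spots and 0 in the low ones. IFNL2 had 2 UMIs and IFNK 1, all in tumor 1. The interferon UMIs of tumor 1 did not gather at the top of the score. Over 10 equal classes from the lowest score (1) to the highest (10), class 3 held 4 of them, class 7 held 4 and class 10 held 5. Classes 1 and 8 held 1 each. Counts this low carry no test, and interferons made by host cells would not be counted here unless their RNA aligns to the human genes.

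Genes that carry the signal from receptor to promoter rose in part. Of 19 tested receptor and JAK-STAT genes, 6 rose and 0 fell (median log2 0.26, against 0.005 for all tested genes). The shares over all tested genes were 4.12% higher and 7.96% lower. IRF9, the DNA-binding part of the ISRE complex, stood at 43.3 CPM in the high spots of tumor 1 against 22.1 in its low spots, and at 37.6 against 13.1 CPM in those of tumor 2 (log2 1.16 ± 0.14 SE, n = 2 tumors, edgeR adjusted p = 4.2e-14). STAT2 (0.70 ± 0.13), IRF7, which amplifies type I interferon genes (0.61 ± 0.13), IRF1 (0.83 ± 0.15) and the receptor chain IFNGR2 (0.39 ± 0.12) rose as well. For these 5 genes both high sums lay above both low sums, as they did for 23.2% of all tested genes. The type I receptor chains did not pass: IFNAR1 was at 27.6 against 25.4 CPM in tumor 1, and 32.3 against 26.5 in tumor 2, and IFNAR2 at 10.6 against 6.28 and 9.06 against 10.6 CPM. JAK1 stood at 42.7 against 41.6 and 43.7 against 41.3 CPM and TYK2 at 33.7 against 26.1 and 29.4 against 27.5 CPM. STAT2, IRF1, IRF7 and IRF9 are themselves known targets of interferon.

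Sensors of nucleic acid, which start the response, rose in 6 of 11 tested members (median log2 0.53), against 4.12% of all tested genes. DDX58, the RNA helicase also known as RIG-I (ENSG00000107201), stood at 60.8 against 24.7 CPM in tumor 1, and 52.6 against 26.9 in tumor 2 (log2 1.16 ± 0.12 SE). Its relative IFIH1, or MDA5, stood at 19.7 against 5.35 and 15.7 against 4.48 CPM (1.85 ± 0.23). DHX58 (1.39 ± 0.32), the endosomal double-stranded RNA receptor TLR3 (2.16 ± 0.56), IFI16 (0.53 ± 0.10) and the nucleotide hydrolase SAMHD1 (0.95 ± 0.12) rose too. TLR3 was scarce, at 3.32 against 0.698 CPM in tumor 1, and 4.20 against 0.960 in tumor 2. Of the sensing of DNA, CGAS and STING did not pass. CGAS was at 34.3 against 37.5 CPM in tumor 1, and 33.1 against 38.7 in tumor 2, and STING, listed as TMEM173, was at 25.8 against 22.6 and 25.4 against 21.4 CPM. The adaptor MAVS (log2 0.28 ± 0.13) and the kinase TBK1 (-0.04 ± 0.16) did not pass.

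Antiviral effectors were the group with the most calls: 32 of 39 tested members rose and 0 fell, with a median log2 of 0.90. Over all tested genes 4.12% rose and 7.96% fell. The summed level of the effectors was 2745 against 1733 CPM in tumor 1, and 2312 against 1561 in tumor 2. OASL, an OAS relative that boosts RIG-I (ENSG00000135114, chromosome 12, 121017761 to 121039246 in GRCh38.p14), had the highest log2 fold change of the genes at 20 CPM or more. It stood at 48.0 against 12.6 CPM in tumor 1, and 46.0 against 9.28 in tumor 2, 4.21-fold over both (log2 2.08 ± 0.16 SE, edgeR adjusted p = 8.04e-38). IFIT2, which binds viral RNA, stood at 45.7 against 17.7 and 41.1 against 12.2 CPM (1.51 ± 0.15). IFI44 stood at 76.7 against 31.9 and 79.8 against 25.3 CPM (1.43 ± 0.12). For these 3 genes both high sums lay above both low sums, as they did for 23.2% of all tested genes.

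IFITM1, a membrane protein that blocks viral fusion (ENSG00000185885, chromosome 11, 314040 to 315272), differed between the sections more than between the patches. It stood at 148 against 52.1 CPM in tumor 1, and 17.7 against 9.60 in tumor 2, so that the low spots of tumor 1 lay above the high spots of tumor 2. IFITM2 and IFITM3 are near copies of it, and reads may be split among them. IFITM3 (0.43 ± 0.07) rose and IFITM2 was at 172 against 185 and 148 against 170 CPM. HELZ2 (1.31 ± 0.12), the RNA helicase DDX60 (1.44 ± 0.17), the ubiquitin ligase DTX3L (1.19 ± 0.15) and its partner PARP9 (1.62 ± 0.20), PARP14 (1.12 ± 0.17), IFI35 (1.42 ± 0.18) and PLSCR1 (1.02 ± 0.13) also rose. Members below 20 CPM ranged widely. SP110 (0.65 ± 0.20), DDX60L (0.71 ± 0.17), APOL1 (0.75 ± 0.19) and SAMD9 (0.90 ± 0.19) had modest ratios and others wide ones. IFI44L was at 33.0 against 3.02 and 19.0 against 3.52 CPM (3.05 ± 0.24), MX2 at 25.5 against 3.49 and 14.4 against 1.92 CPM (2.87 ± 0.26), EPSTI1 at 7.999 against 1.40 and 7.51 against 1.28 CPM (2.51 ± 0.41) and XAF1 at 27.7 against 3.96 and 12.8 against 4.48 CPM (2.34 ± 0.24). Abundant effectors moved less, as with LGALS3BP (0.30 ± 0.08), PML (0.43 ± 0.10), BST2 (0.69 ± 0.10), ADAR (0.68 ± 0.09), EIF2AK2 (0.74 ± 0.10) and LY6E (0.99 ± 0.09). TRIM21, SP100 and ISG20 were among the 7 that did not pass, and RSAD2, CMPK2 and RTP4 were too scarce to test.

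All 6 genes of ISG15 conjugation rose (median log2 1.08), where 4.12% of all tested genes did. The 6 attach the ISG15 protein to targets or remove it. USP18, which removes ISG15 and also dampens the type I receptor, stood at 11.2 against 1.16 CPM in tumor 1, and 7.07 against 1.28 in tumor 2 (log2 2.94 ± 0.40 SE). The activating enzyme UBA7 (1.33 ± 0.28), the conjugating enzyme UBE2L6 (0.58 ± 0.12) and the ligases HERC5 (0.83 ± 0.16), HERC6 (1.44 ± 0.19) and TRIM25 (0.40 ± 0.11) followed. UBE2L6 differed little in tumor 2, where it stood at 38.4 against 35.2 CPM.

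**Figure D2:**
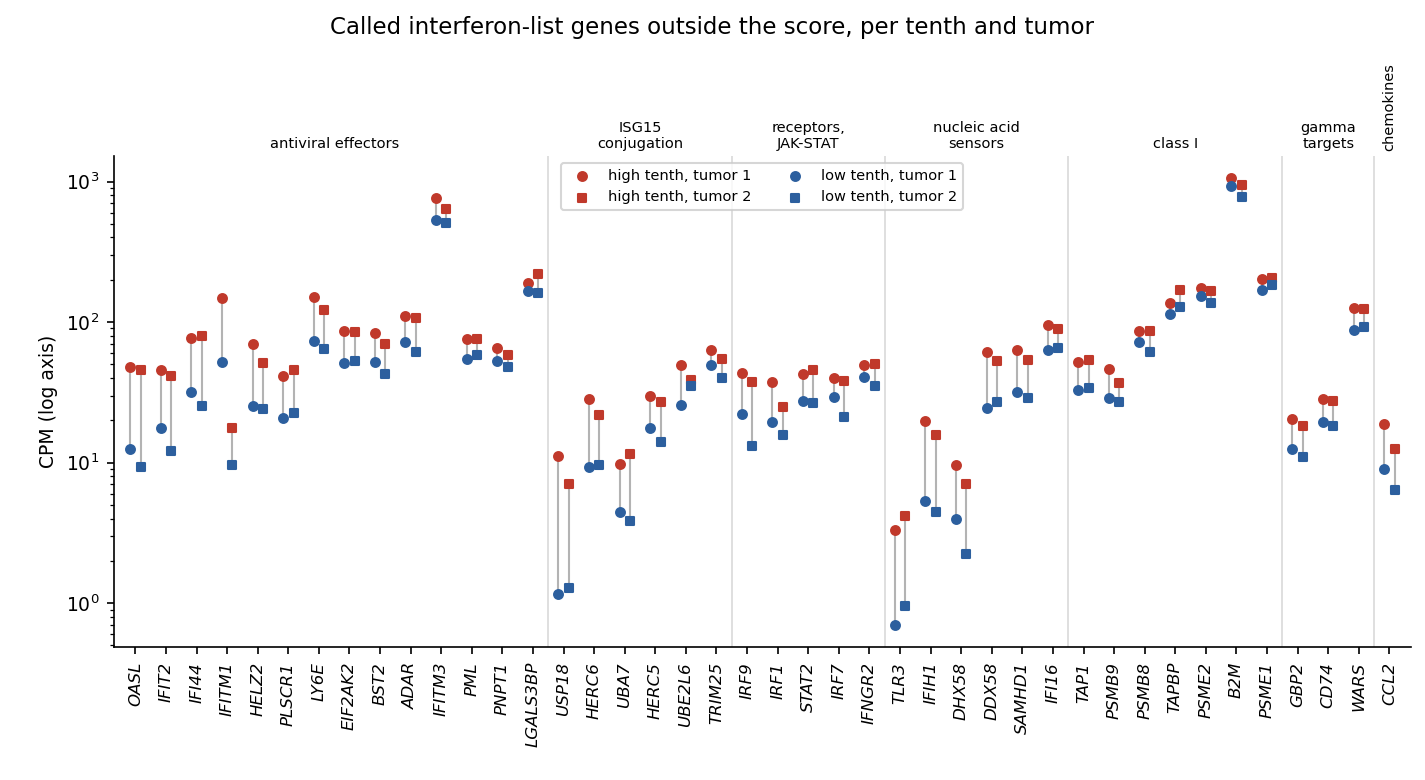
Level of called members of the interferon lists in the 4 sums, in CPM on a log axis, grouped by role: the 14 most abundant called effectors and the called members of the other lists that are reported here. Red marks are interferon-high and blue marks interferon-low spots, circles tumor 1 and squares tumor 2, and grey lines join the 2 groups of a tumor. Each red mark lies above its blue partner, by most in USP18, TLR3 and OASL and by least in class I genes such as B2M.

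Class I antigen presentation moved less. Of 18 tested members 7 rose and 0 fell (median log2 0.26), where 4.12% of all tested genes rose and 7.96% fell. The summed level of the list was 2970 against 2737 CPM in tumor 1, and 2887 against 2495 in tumor 2. The peptide transporter TAP1 stood at 52.3 against 33.0 and 54.1 against 33.9 CPM (0.67 ± 0.12). The immunoproteasome subunits PSMB9 (0.59 ± 0.13) and PSMB8 (0.37 ± 0.10), the activator subunits PSME1 (0.22 ± 0.08) and PSME2 (0.23 ± 0.08), TAPBP (0.32 ± 0.08) and the light chain B2M (0.23 ± 0.07) rose. The heavy chain HLA-B was at 236 against 235 and 246 against 222 CPM and did not pass. HLA genes resemble each other and reads may be split among them. DESeq2 called 0 of these 18, 18 of the 39 effectors, 2 of the 6 conjugation genes, 2 of the 19 receptor and JAK-STAT genes and 3 of the 11 sensors. Over all tested genes DESeq2 called 0.342% higher.

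Targets linked to interferon gamma rose in 3 of 10 tested members, GBP2 (0.72 ± 0.19), CD74 (0.57 ± 0.16) and WARS (0.48 ± 0.09). The share over all tested genes was 4.12%. The checkpoint ligand CD274 was at 8.86 against 13.03 and 11.5 against 13.1 CPM and did not pass. IDO1 had 0 UMIs in all 4 sums and GBP5 was at 0.37 CPM or less. Of 6 tested chemokines and cytokines only CCL2, which draws monocytes, passed, at 18.8 against 9.07 and 12.6 against 6.40 CPM (1.03 ± 0.21). DESeq2 called 0 of the 10 gamma-linked targets and 0 of the 6 chemokines and cytokines, and the fit with no replicate block called 1 of each. Over all tested genes the 2 methods called 0.342% and 0.911% higher, in that order. CXCL10, the usual interferon-driven chemokine, was at 0.74 CPM or less in every sum and was not tested.

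PRSS2, which encodes a trypsinogen and belongs to none of the lists (ENSG00000275896, chromosome 7, 142770970 to 142774560), had the second highest log2 fold change at 20 CPM or more. It stood at 170 against 51.4 CPM in tumor 1, and 124 against 44.5 in tumor 2, 3.08-fold over both (log2 1.62 ± 0.10 SE, edgeR adjusted p = 4.62e-61). The trypsinogens PRSS1 and PRSS3 are near copies, so how reads were split among them is uncertain. PRSS3 went the other way (-0.40 ± 0.10).

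The levels moved in steps over the whole range of the score. From the lowest to the highest 10% of spots, effectors went from 1599 to 2775 unscaled CPM (by total UMIs alone) in tumor 1 and from 1514 to 2503 in tumor 2, rising at every step in both. The hypoxia list made its largest drop at the bottom end. From the lowest 10% to the next 10% it went from 8746 to 6450 unscaled CPM in tumor 1 and from 9216 to 6100 in tumor 2, and then to 4096 and 4457 in the highest 10%. These levels are a description.

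**Figure D3:**
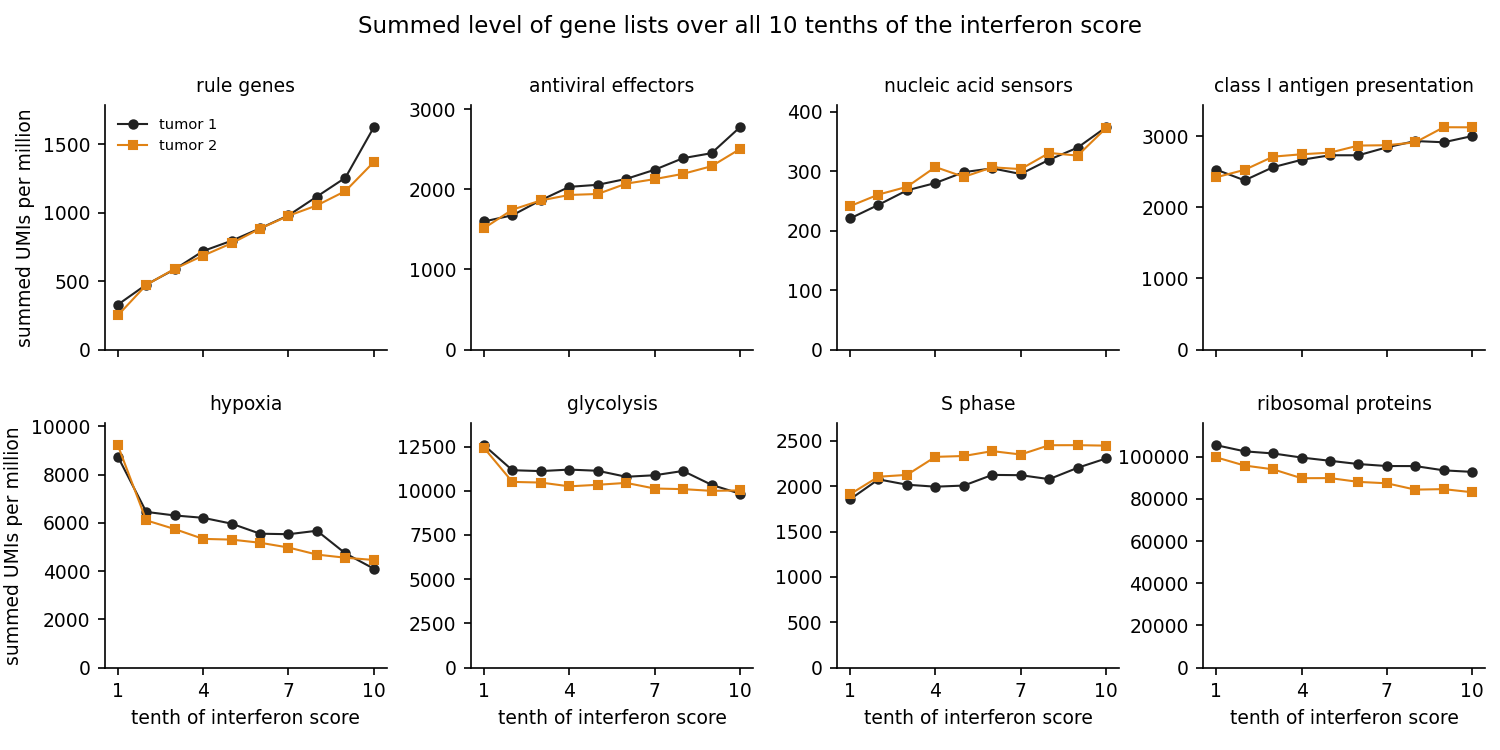
Summed level of 8 gene lists, in unscaled CPM, in 10 equal classes of spots from the lowest (1) to the highest (10) interferon score, with circles for tumor 1 and squares for tumor 2 and every vertical axis starting at 0. Rule genes are the 9 genes of the score, which rise by construction. Effectors climb through all 10 classes, whereas the hypoxia list falls most between classes 1 and 2.

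Genes of the hypoxic response were lower in the interferon-high spots. All 28 genes of the hypoxia list fell, against 7.96% of all tested genes, with a median log2 of -1.34. Together they reached 4052 CPM in the high against 9520 CPM in the low spots of tumor 1 and 4117 against 9507 CPM in tumor 2. ADM, the vessel-dilating peptide adrenomedullin (ENSG00000148926, chromosome 11, 10305073 to 10307397), stood at 41.5 against 265 and 32.3 against 249.5 CPM (log2 -2.78 ± 0.09 SE). CA9, a carbonic anhydrase that exports acid, stood at 34.95 against 185 and 34.5 against 195 CPM (-2.44 ± 0.09). NDRG1 was the most abundant of the 12 lowest genes, at 312 against 1400 and 341 against 1365 CPM (-2.09 ± 0.08). The oxygen sensor EGLN3 (-2.33 ± 0.14), ANKRD37 (-1.88 ± 0.11), ANGPTL4 (-1.76 ± 0.09) and VEGFA (-1.68 ± 0.09) fell too. For these 7 genes both high sums lay below both low sums, as they did for 23.7% of all tested genes. An inverse relation of MX1 and OAS2 to the hypoxia score was known from these data when the members were chosen, so it is not independent support.

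Genes outside the hypoxia list were also among the 12 lowest. MT1M, a metallothionein that binds zinc (ENSG00000205364), had the lowest log2 fold change at 20 CPM or more, at 6.65 against 79.8 CPM in tumor 1, and 6.85 against 59.5 in tumor 2 (-3.41 ± 0.15). SAA1, an acute-phase apolipoprotein, stood at 13.2 against 68.2 and 12.2 against 146 CPM (-2.92 ± 0.12). Metallothioneins and the SAA genes have near copies, and their single values are uncertain. DEPP1 (-2.43 ± 0.12), the collagen crosslinker LOX (-1.93 ± 0.09) and the actin-binding LIMCH1 (-1.69 ± 0.08) completed the 12 lowest. Glycolysis fell in 15 of 17 tested genes (median -0.53), against 7.96% of all tested genes. It was led by HK2 at 63.3 against 174 and 78.4 against 188 CPM (-1.37 ± 0.08) and the glucose transporter SLC2A3 (-1.35 ± 0.09). Within classes of the hypoxia score 1 glycolysis gene fell and 1 rose (median -0.05), and with the score adjusted by regression 1 fell and 3 rose (median 0.07).

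The hypoxia score (the mean z-scored log2 level of the 28 genes, averaged over adjacent spots) was -0.36 in high and 0.50 in low spots of tumor 1, and -0.20 and 0.66 in tumor 2. Among low spots, 69.5% (tumor 1) and 76.0% (tumor 2) were in the top 25% of the hypoxia score, against 4.48% and 8.16% of the high spots. The reverse did not hold as strongly: 63.7% of high spots lay in the bottom 25% in tumor 1 but 30.6% in tumor 2.

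Interferon-low spots lay nearer the tissue border. Any group of at least 5 adjoining positions off the tissue counted as border, so a hole inside the tissue would count too. The mean distance from it was 9.87 ± 5.67 steps (SD over 223 spots) in high and 5.57 ± 4.98 in low spots of tumor 1 and 8.98 ± 5.06 and 5.54 ± 4.33 (196 spots each) in tumor 2, where a step is a spot spacing. All spots kept averaged 8.40 and 9.40 steps, so the high spots of tumor 2 were no deeper than the rest. Medians were 9 against 4 in both. Within 2 steps of the border lay 29.6% of low and 8.52% of high spots of tumor 1, with 18.4% of all its spots, and 24.5% and 7.65% in tumor 2, with 14.3% of all. The mean of the 2 differences was 3.87 steps. Spots of a section are not independent, so the SD describes the spots and no test was made. With 20% of spots at each end the difference was 1.18 steps, and with the score of the spot alone it was 1.87. With 20% the means in tumor 2 were 8.77 in high and 8.35 in low spots. Among 10 equal classes of the score, classes 2 and 3 from the bottom averaged 8.87 and 8.02 steps in tumor 1, and 11.2 and 11.3 in tumor 2. The short distance was thus that of the lowest 10%, not a steady trend with the score.

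**Figure D4:**
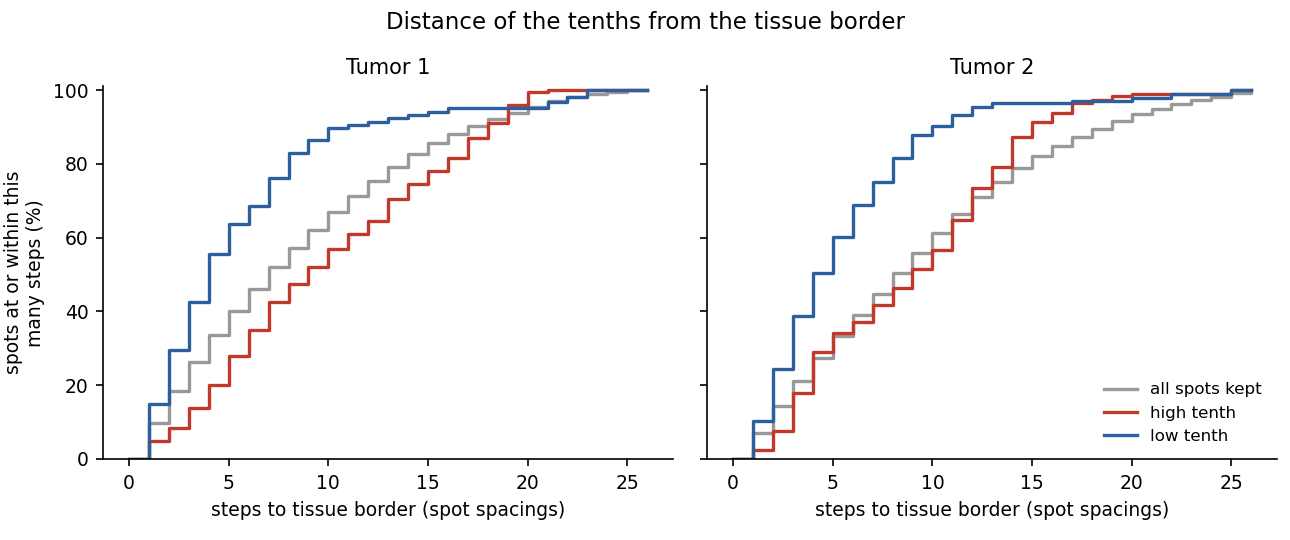
Cumulative share of spots (%) at or within a given number of steps from the tissue border, in spot spacings, for the interferon-high spots (red), the interferon-low spots (blue) and all spots kept (grey) in each tumor. The low spots rise first in both tumors, with a median of 4 steps against 9 for the high spots.

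Low spots also adjoined the poorly captured tissue seen as a blank on the maps, a measure added after the maps were seen. Of low spots, 42.6% in tumor 1 and 46.4% in tumor 2 lay within 2 steps of an area of 5 or more tissue spots under 5000 UMIs, against 0 and 2.04% of high spots and 11.3% and 17.02% of all spots kept. The mean distance was 3.94 ± 3.52 steps (SD) in low and 15.3 ± 4.91 in high spots of tumor 1, and 3.31 ± 2.31 and 10.0 ± 4.99 in tumor 2.

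Since hypoxia, depth and place all moved with the score, the 10% at each end were chosen again within 5 equal classes of each. Within hypoxia classes, high and low spots differed in it by -0.091 in place of -0.86. There 403 genes were higher (3.24% of 12457) and 476 lower (3.82%), and 32 of 39 effectors rose and 0 fell, with a median log2 of 0.75. All 6 conjugation genes rose (median 0.86), as did 6 of 11 sensors (0.59) and 9 of 18 class I genes (0.34). With the score adjusted by regression on the hypoxia score, border steps, UMIs and markers of other cells, 434 genes were higher (3.41% of 12730) and 406 lower (3.19%), and 33 of 39 effectors rose (0.71) and 9 of 19 class I genes (0.41). Within classes of UMIs per spot, where medians were 25777 and 25692 in tumor 1 and 4.19% of all tested genes were called higher, 32 of 39 effectors rose (0.85). Within classes of border steps, with 5.37% called higher, 32 of 39 rose (0.76). OASL stayed at 1.79 ± 0.14 within hypoxia classes and 1.68 after regression. PRSS2 stayed at 1.18 and 1.06.

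The hypoxia list lost most of its difference within hypoxia classes, as the choice of spots favours. There 9 of 28 fell and 1 rose (median -0.13), against 3.82% and 3.24% of all tested genes. After regression 0 fell and 10 rose (median 0.20), against 3.19% and 3.41% of all tested genes. The median thus lay on the other side of 0 after regression. The spots chosen after regression had a mean hypoxia score of -0.11 (high) and -0.18 (low) in tumor 1. In tumor 2 it was 0.043 (high) and -0.073 (low). The cause was not tested. Of the 506 genes called higher over the whole section, 192 were called higher within hypoxia classes and 153 after regression, and of the 979 called lower, 286 and 148 were called lower. SAA1 stayed low in both (-2.05 and -1.36), as did LIMCH1 (-0.60 and -0.39), while MT1M was at -1.84 and -0.20, the latter not called. CDH11, a cadherin of mesenchymal cells that rose over the whole section (0.98 ± 0.14), was at -0.03 and -0.01 in the balanced choices and no longer called.

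**Figure D5:**
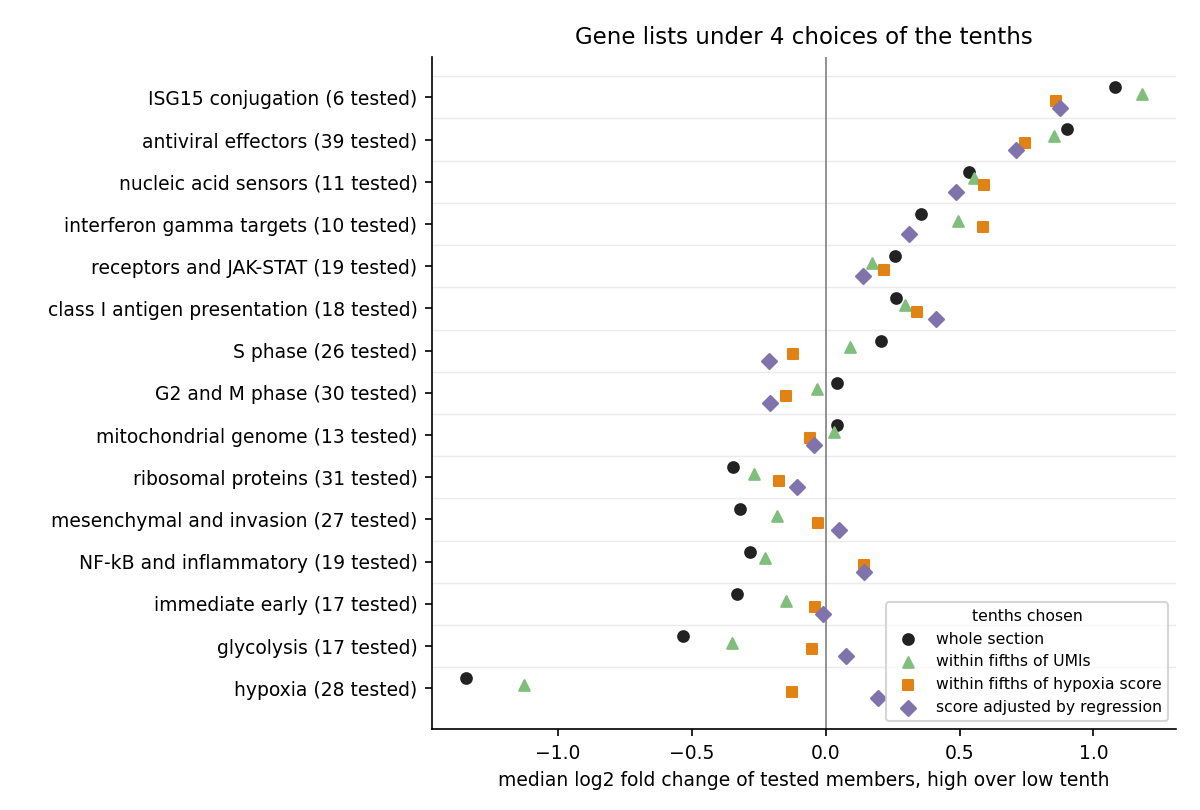
Median log2 fold change (high over low spots) of the tested members of 15 gene lists under 4 choices of spots: over the whole section (circles), within 5 classes of UMIs per spot (triangles), within 5 classes of the hypoxia score (squares) and after regression (diamonds). Numbers of tested members are those over the whole section. Medians of ISG15 conjugation and effectors stay at 0.71 or above in all 4. Several others pass to the other side of 0 after regression, among them those of the hypoxia, glycolysis, NF-kB, S phase, and G2 and M phase lists.

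S phase genes had no direction that held across these choices. Over the whole section 6 of 26 rose (median 0.21), among them PCNA (0.35 ± 0.08) and CDC6 (0.33 ± 0.10), but within hypoxia classes 0 rose and 4 fell (-0.12) and after regression 8 fell (-0.21). Genes of G2 and M phase fell in 3 of 30 (median 0.04), ANLN (-0.36 ± 0.08), CENPE (-0.35 ± 0.12) and CENPF, a share near the 7.96% of all tested genes. After regression 11 of 30 fell (median -0.21), whereas library size scaling gave 11 higher and 0 lower. Ribosomal protein genes fell in 30 of 31 (median -0.35), against 7.96% of all tested genes. Their sum went from 114438 to 91866 CPM in tumor 1 and from 102868 to 76842 in tumor 2 going from low to high spots. They fell in 28 of 31 within hypoxia classes (-0.17) and 12 after regression (-0.11), where 3.82% and 3.19% of all tested genes fell. The fit with no replicate block called 0 of the ribosomal genes.

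Stress and inflammatory lists had more members lower than higher in the interferon-high spots of the whole section. So did all tested genes, of which 7.96% were lower and 4.12% higher. Of the NF-kB and inflammatory list 5 of 19 fell and 1 rose, with the prostaglandin synthase PTGS2 at 3.57 against 16.98 and 5.30 against 19.8 CPM (-2.09 ± 0.23) and TNFAIP3 at -0.94 ± 0.18. Within hypoxia classes 1 fell and 2 rose, where 3.82% of all tested genes were lower and 3.24% higher. Heat shock genes fell in 6 of 13 and rose in 1, with HSPA6 (-0.96 ± 0.15) differing in tumor 1 (9.60 against 34.4 CPM) and hardly in tumor 2 (26.7 against 27.5 CPM). Within hypoxia classes 4 of 13 rose and 1 fell, HSPA6 among those that rose (0.78), though it was at -0.23 in tumor 1 and 2.05 in tumor 2. HSPA1A and HSPA1B are near-identical and their split is uncertain. Immediate early genes fell in 7 of 17 and rose in 1, with DUSP1 at -1.19 ± 0.08. Of stress response genes 7 of 21 fell and 1 rose, led by VLDLR (-1.42 ± 0.18) and PPP1R15A (-1.21 ± 0.09). Mesenchymal and invasion genes fell in 14 of 27 and rose in 3, with MMP1 at 45.2 against 91.0 and 47.7 against 102 CPM (-1.05 ± 0.10). After regression 5 mesenchymal genes rose and 5 fell (median 0.05), where 3.41% of all tested genes were higher and 3.19% lower.

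Of p53 and DNA damage genes 4 of 19 fell and 1 rose, with GADD45A at -0.62 ± 0.11. Cholesterol synthesis had 1 of 20 higher and 1 lower, MSMO1 (-0.35 ± 0.09), near or below the shares of all tested genes (4.12% and 7.96%). Mitochondrially encoded genes fell in 2 of 13, among them MT-ND4L (-0.37 ± 0.08), and rose in 0.

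Markers of other cells made up 0.160% of UMIs in high and 0.265% in low spots of tumor 1, and 0.187% and 0.235% in tumor 2. Their part in the other results was not tested beyond the choices of spots given here. Of 9 tested fibroblast markers 4 fell and 1, PDGFRB, rose, and the list summed to 766 against 1949 and 880 against 1626 CPM. COL3A1 stood at 178 against 617 and 212 against 539 CPM (-1.58 ± 0.07) and COL1A1 at -1.11 ± 0.07. Of 9 macrophage and granulocyte markers only CD68 passed (-0.54 ± 0.08), and S100A8 had 0 UMIs in all 4 sums. In the endothelial list AQP1 rose (1.07 ± 0.34) from under 4 CPM, ENG did not pass, and EMCN, CLDN5 and PLVAP were at 0. Of lymphocyte and dendritic cell markers 0 of 2 tested passed, and CD3E, GZMB, MS4A1, CLEC9A and XCR1 were at 0. HBB of red blood cells rose (1.34 ± 0.18), at 22.8 against 12.6 and 31.4 against 7.36 CPM, and was at -0.03 within classes of border steps. KRT14 rose from under 1 CPM (2.36 ± 0.65) and PERP fell (-0.33 ± 0.09) in the skin list, and the adipocyte list had 0 called of 1 tested. Skeletal muscle markers summed to 14.5 against 13.96 CPM in tumor 1, and 93.2 against 23.0 CPM (422 against 72 UMIs) in tumor 2. Of the 12, only MYLPF was tested and it did not pass. With 20% of spots at each end 7 of 7 tested muscle markers were higher (5.79% of all tested genes), with the spot alone 4 of 10 (3.15%), with no filter on low counts 5 of 12 (2.22%) and after regression 2 of 3, whereas within hypoxia classes 7 of 9 were lower. The part of muscle in the other results was not tested. Without the 10% of spots richest in these markers, 598 genes were higher (4.92%) and 1006 lower (8.28%).

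The patches differed among themselves. Among patches of 10 or more spots, the 6 interferon-high patches of tumor 2 had between 1180 and 1553 unscaled CPM of score genes and the 2 of tumor 1 had 1624 and 1771. The low patches lay between 308 and 396 in tumor 1 and at 241 and 337 in tumor 2. Effectors followed, at 2165 to 2848 unscaled CPM in high patches of tumor 2, 2742 and 3297 in those of tumor 1, and 1504 to 1716 in all 6 low patches of both tumors. Hypoxia genes did not separate the patches as cleanly. A low patch of 10 spots in tumor 1 had a hypoxia score of -0.25 and 4508 unscaled CPM of hypoxia genes, close to the 4089 of the largest high patch there, with effectors at 1716. A high patch of 12 spots in tumor 2 had a hypoxia score of 0.24 and 6501 unscaled CPM of hypoxia genes, with effectors at 2531. IFITM1 was at 149 and 177 unscaled CPM in the high patches of tumor 1 and between 5.70 and 38.2 in those of tumor 2. These are values of single patches with no replicate and carry no test.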

How the data were processed

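UMI counts per gene and spot of 2 Visium sections were used as deposited. Per the file headers they were made by the authors with Space Ranger 1.3.0, and per the submitters' processing notes on hg38. Filtered matrices list 36601 human features. The members and the gene lists were chosen with earlier results of these data known.

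Spots with at least 5000 UMIs were scored, and the highest and lowest 10% of each tumor were summed. The 4 sums, without the 9 score genes, were tested in edgeR 4.0.16 (R 4.3.3; TMM, filterByExpr, quasi-likelihood test, tumor as block, Benjamini-Hochberg adjusted p of 0.05 over all genes tested). CPM use TMM library sizes, and unscaled CPM use raw totals. DESeq2 1.42.0, other scalings and other choices of spots were alternatives, 21 in all. The block is the section itself, since each tumor gave both a high and a low sum. With 1 residual degree of freedom, p-values rest on a variance trend shared by all genes, not on the spread of each gene between the tumors, which may be partly technical. Each edgeR SE was derived from the log2 fold change and the F statistic of the same fit, so it has the same limit. On simulated counts of 12128 genes with known changes between these groups, the test recovered 85% of genes changed by a log2 of 0.5 and 100% of those changed by 1, with 10 false calls. These counts were drawn with the variance trend of the fit itself, and only genes at 20 CPM or more were changed. The simulation therefore cannot show whether that trend holds in the tumors, nor how scarcer genes fare.

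A position off the tissue belonged to the border if it lay in a group of at least 5 such positions. Genes named are the 9 score genes, the 12 highest and 12 lowest called genes with a mean of 20 CPM or more and 1 sign in both tumors, all called interferon-list members, the interferons, and the 2 members of each other list with the largest change. Other names, distances to areas under 5000 UMIs and values per patch were added after values were seen. Promoters are RefSeq, GRCh38.p14, and 109 of 111 named genes had coordinates there. Doublets do not apply to spots. The 95% binomial intervals cover counting error only. Values of some single genes are not reported here.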

Additional observations from a re-analysis of the deposited data

Results flagged for a closer look

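Tissue spots under 5000 UMIs were left out of the comparison and still carried the score genes. In the 302 such spots of tumor 1 these genes made up 7.48 of 10000 UMIs (95% exact binomial interval 6.96 to 8.03), against 9.33 in the spots kept. In the 884 such spots of tumor 2 they made up 6.22 (5.84 to 6.62), against 8.44. Both values drew attention because they come from spots outside the comparison, though the alternative from 2000 UMIs did use those with 2000 UMIs or more. They lie below the level of the spots kept. The 4.17 and 3.97 that bounded the interferon-low groups are averaged scores of single spots, so these pooled values cannot be set against them.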

How the results depend on the processing

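Without the replicate block (no replicate block, so without pairing the sums of a tumor) 112 genes were higher and 312 lower, against 506 and 979. DESeq2 gave 42 and 236, library size alone 1946 and 553, and spots thinned to 5000 UMIs 158 and 507. Taking 20% of spots at each end gave 788 higher and 5% gave 302. Genes lower were 476 within hypoxia classes and 406 after regression. The difference in border steps (3.87) was 1.18 with 20% and 4.81 with 5% at each end, 1.87 for the spot alone, 3.15 from odd places, 2.70 both within UMI classes and without marker-rich spots, 0.135 after regression and -0.421 within border classes, where balance is built in. The hypoxia score difference (-0.861) was -0.743 from 2000 UMIs, -0.889 from 10000 UMIs, -0.604 with 20%, -1.06 with 5%, -0.650 for the spot alone, -0.898 with equal weights, -0.834 and -0.793 from odd and even places, -0.0910, -0.828 and -0.709 within classes of hypoxia, border steps and UMIs, -0.875 without marker-rich spots and 0.0927 after regression. The hypoxia list median (-1.34) was, in that order, -1.39, -1.30, -0.95, -1.75, -0.98, -1.44, -1.31 (even places), -0.13, -1.47, -1.13 and, after regression, 0.20. It was -1.20 by library size and -1.64 thinned. Leaving out each tumor gave 3.44 to 4.30 steps, -0.866 to -0.856 in score and -1.37 to -1.32 in the median.

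Of 2288 values over 111 genes, 2008 were the same, 199 lost the call, 11 gained it, 42 reversed and 28 moved. The same means that direction and side of the threshold were kept. Values without 1 tumor have no p-value, and for them it means a distance from the main value under the SD of the 2 tumors. After regression the reversed log2 values were ADM 0.031, CA9 0.15, DEPP1 0.79, EGLN3 0.83, NDRG1 0.61, LOX 0.76, ANKRD37 0.43, ANGPTL4 0.62, VEGFA 0.25, PNPT1 -0.12, PTGS2 0.46, TNFAIP3 0.41, HK2 0.21, SLC2A3 0.60, PCNA -0.14, CDC6 -0.27, HSPA6 0.72, HSPA1B 0.18, VLDLR 0.18, EGR2 0.35, CDH11 -0.011, CD68 0.038, TCF4 -0.0062 and PERP 0.069. Within hypoxia classes they were LOX 0.025, TNFAIP3 0.17, SLC2A3 0.13, CDC6 -0.21, HSPA6 0.78, HSPA1B 0.19, CDH11 -0.032, TCF4 -0.19 and MYLPF -0.35. HBB was -0.26 from even places, -0.014 with 20% at each end, -0.033 within border classes and -0.19 without marker-rich spots, and MT-ND6 0.15 with 5% at each end. Without tumor 1 EGR2 was 0.28 and C1QA -0.39, and without tumor 2 they were -1.21 and 0.93. CD3D was 1.98 and -0.39, and TCF4 -0.21 without tumor 2. The cause was not tested. Depth limits genes of a few CPM most.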

Other observations

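Genes outside the lists were read after their values were seen. Among those higher in the interferon-high spots, TRIM14, an adaptor of antiviral signalling, stood at 48.5 against 25.8 CPM in tumor 1, and 39.8 against 20.8 in tumor 2 (log2 0.92 ± 0.13 SE). MYD88, an adaptor of Toll-like receptors, was at 0.80 ± 0.16, ZC3HAV1, which binds viral RNA, at 0.67 ± 0.13, and IFI30, a lysosomal thiol reductase, at 0.61 ± 0.13. F2RL1, a receptor cleaved by trypsin-like proteases, stood at 120 against 64.9 CPM and 120 against 63.7 CPM (0.90 ± 0.09). The RNA of HIF1A, which encodes a HIF factor, stood at 174 against 127.03 CPM and 183 against 107 CPM (0.59 ± 0.08). Its protein was not measured, so the RNA cannot be set against the 28 genes of the hypoxia list. The values of these genes are from the whole-section comparison, with an edgeR adjusted p under the threshold for each. Their values within hypoxia classes and after regression are not given here.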
